A study of Mus musculus with 6 samples.

Results

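The 10 genes described here build the calcium cycle of the heart muscle cell, and they were taken as the rows of the count table that carry the names Atp2a2, Pln, Sln, Ryr2, Casq2, Trdn, Hrc, Jph2, Slc8a1 and Cacna1c. The table holds 54532 genes, and 14774 of them passed the low-count filter, including all 10 members. Sln entered the test only through the libraries in which it was high, so it is described apart. RNA-seq was performed on poly-A selected RNA from left ventricles taken 4 weeks after aortic banding (AB) from 3 TG mice and 3 NTG mice, which narrows the aorta and loads the left ventricle with pressure. The design asks how HINT2, a nucleotide hydrolase of mitochondria, acts on the heart under this load, and all 6 hearts carried the band. TG mice have the genotype HINT2CTG-Myh6Cre: a HINT2 transgene under a CAG promoter, switched on by a Cre that the Myh6 promoter drives in cardiomyocytes, and they received tamoxifen. NTG mice are labelled C57BL/6J, and the sources used here do not state whether they carried Cre or received tamoxifen. The transgene, the Cre and the tamoxifen therefore cannot be told apart in this comparison, and no heart without AB was part of it.

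In each heartbeat, calcium enters through L-type channels of the cell membrane and opens ryanodine receptors in the sarcoplasmic reticulum, the calcium store of the muscle cell, and the released calcium starts contraction. The pump SERCA2 then returns calcium to the store under the brake of phospholamban, while the sodium-calcium exchanger carries the remainder out of the cell. Lower levels of the pump relative to its inhibitor and to the exchanger are well known in failing hearts.

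Total counts on genes were 14863568 to 17581220 per library, and the 10 genes together took 0.717% to 1.26% of them. Values are given as CPM, the count of a gene scaled to a common library size, after TMM normalisation, which aligns the bulk of genes between libraries. The quasi-likelihood test of edgeR set TG against NTG. Genes with a log2 fold change beyond 0.5 in either direction and an adjusted p below 0.05 are referred to as called. The Hint2 row was at 47.1 to 57.2 CPM in TG and at 28.9 and 32.3 CPM in NTG 2 and NTG 3, but the library labelled NTG 1 held 12 Hint2 counts, or 0.819 CPM. Along the main axis of variation between libraries (52.3% of the variance), the library labelled NTG 1 had a score of -5.08, between the other NTG libraries (29.3 and 55.7) and the TG libraries (-36.5 to -10.7), and nearest to TG 2. In pairwise chi-square values of counts per gene, it was nearer to each TG library (17.8 to 28.1) than to either other NTG library (33.1 and 71.2). Its label could not be checked further, and every NTG mean includes it unless stated. Fold changes of the 10 genes are therefore also given without it, after the single genes. No pair of libraries agreed within sampling noise. Each library is 1 heart, and p-values measure the spread between these hearts only.

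Promoters of 7 of the 10 genes (all but Atp2a2, Sln and Trdn) were in the promoter table used here, which was taken from RefSeq (build GRCm38.p6, 250 bases before and 50 bases after a start site), and those of the 3 genes whose groups did not overlap are shown with that of Pln, the inhibitor of the pump. Capitals mark matches on either strand to TATAAA, the CCAAT box, the GC box GGGCGG, the nuclear receptor half-site AGGTCA and GATAA. Hrc is at chr7:45335019-45335318 on the + strand, Jph2 at chr2:163397944-163398243 on the - strand, Pln at chr10:53337436-53337735 on the + strand and Slc8a1 at chr17:81738338-81738637 on the - strand.
Hrc: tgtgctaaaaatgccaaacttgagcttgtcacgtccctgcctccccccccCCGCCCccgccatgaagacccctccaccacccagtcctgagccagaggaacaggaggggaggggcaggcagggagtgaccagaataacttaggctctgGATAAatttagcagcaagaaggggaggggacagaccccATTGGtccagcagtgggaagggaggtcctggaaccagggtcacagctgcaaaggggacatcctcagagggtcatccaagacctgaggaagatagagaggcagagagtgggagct
Jph2: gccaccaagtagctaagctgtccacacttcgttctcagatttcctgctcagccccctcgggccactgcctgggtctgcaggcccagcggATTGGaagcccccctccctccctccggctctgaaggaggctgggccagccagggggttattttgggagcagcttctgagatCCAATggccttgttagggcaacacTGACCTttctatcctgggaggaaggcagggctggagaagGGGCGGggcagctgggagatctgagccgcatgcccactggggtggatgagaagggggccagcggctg
Pln: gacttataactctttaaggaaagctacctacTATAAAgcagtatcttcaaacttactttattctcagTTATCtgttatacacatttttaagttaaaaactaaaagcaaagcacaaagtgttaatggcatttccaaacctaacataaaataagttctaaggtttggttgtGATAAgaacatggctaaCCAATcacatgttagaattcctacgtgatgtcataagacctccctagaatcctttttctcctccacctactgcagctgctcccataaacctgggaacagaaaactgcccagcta
Slc8a1: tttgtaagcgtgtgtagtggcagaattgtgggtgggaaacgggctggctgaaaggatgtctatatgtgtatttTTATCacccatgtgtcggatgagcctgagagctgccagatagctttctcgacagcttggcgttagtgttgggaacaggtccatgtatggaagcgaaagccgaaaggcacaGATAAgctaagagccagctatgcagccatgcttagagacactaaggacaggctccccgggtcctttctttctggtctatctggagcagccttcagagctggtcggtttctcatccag

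These 4 windows differed in base composition, with 36.0% G and C in Pln, 50.7% in Slc8a1, 58.7% in Hrc and 63.0% in Jph2, around a median of 52.7% over all 32851 promoters of the table. TATAAA was found in the Pln window and is held by 13.6% of all promoters. CCAAT, held by 37.4% of all promoters, was found in the windows of Hrc, Jph2 and Pln. Hrc and Jph2 also held GGGCGG, which is in 35.7% of all promoters, and Jph2 held AGGTCA, which is in 16.3%. GATAA was found in Hrc, Pln and Slc8a1 and in 25.4% of all promoters. The motif of MEF2 factors was in none of these 4 windows but was in that of Casq2, and 1.86% of all promoters hold it. The CArG box was in no member's window and is in 1.63% of all promoters. The window of Ryr2 held the GC box and AGGTCA, and Cacna1c has 3 start sites with windows of 51.3% to 81.3% G and C. Such matches describe letters only.

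In TG hearts, 9 of the 10 genes had a higher fitted level than in NTG hearts and Slc8a1 had a lower one, but 0 of the 10 were called by edgeR, where 0% of all genes tested were called. The median log2 fold change of the 10 genes was 0.32, against -0.0081 for the 14774 genes, and without Sln, 8 of 9 genes were higher and the median was 0.22. By an edgeR p below 0.05 before adjustment, 2 of the 10 were higher in TG (Jph2 and Hrc), as were 8.83% of all genes tested, and 1 was lower (Slc8a1), as were 9.76%. DESeq2 called 0 of the 10 as well, while it called 3.95% of all genes tested. The 3 TG libraries lay entirely above the 3 NTG libraries for 2 of the 10 genes (11.2% of all genes tested) and entirely below for 1 (12.3%). Among 10 genes these shares come to about 1 gene each, so that a count of 1 or 2 is near the background. The smallest adjusted p of any gene was 0.196, shared by 629 genes.

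**Figure D1:**
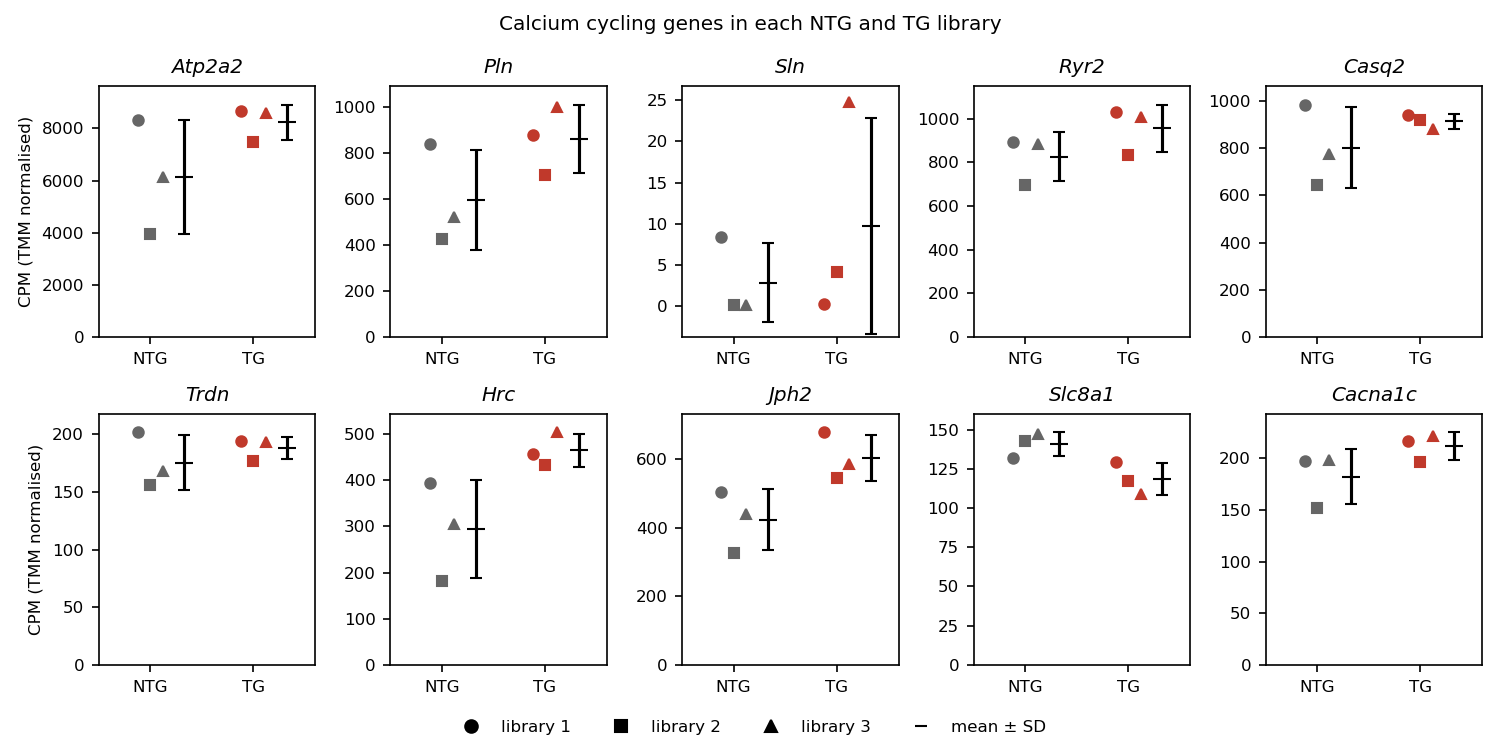
CPM after TMM normalisation (vertical axes) of the 10 genes in the 3 NTG libraries (grey) and 3 TG libraries (red), with symbols for library number and black bars for mean ± SD. The groups are separate for Hrc and Jph2, where TG is higher, and for Slc8a1, where TG is lower; Sln spans 0.0531 to 24.8 CPM with both groups mixed.

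Atp2a2 encodes SERCA2, the pump that refills the sarcoplasmic reticulum, and lies at chr5:122453513-122502225. It was at 8321, 3969 and 6141 CPM in NTG 1, 2 and 3 and at 8675, 7467 and 8572 CPM in TG 1, 2 and 3. The TG libraries were close to each other, while the NTG libraries differed widely and the library labelled NTG 1 sat among the TG libraries. The means were 6144 ± 2176 in NTG and 8238 ± 669.8 in TG (SD, n = 3 each), a log2 fold change of 0.42 (SE 0.27) with an adjusted p of 0.414 by edgeR. Atp2a2 was the 9th most counted gene by mean CPM and alone made up 0.425% to 0.826% of all counts.

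Pln encodes phospholamban, the inhibitor of SERCA2 that phosphorylation relieves, and lies at chr10:53337667-53345987. Its levels were 840.3, 427 and 524 CPM in NTG and 879.7, 703 and 1000.3 CPM in TG. As for the pump, the library labelled NTG 1 overlapped with TG, and NTG 2 was lowest. The means were 597 ± 216 and 861 ± 149.6 CPM (SD, n = 3 each), with a log2 fold change of 0.53 (SE 0.26) and an adjusted p of 0.314 by edgeR. Pln overlaps Cep85l on the opposite strand, whose counts equal 4.78% of those of Pln, and the strand setting of the counting is not given in the sources used here.

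Within each library, phospholamban RNA followed the pump. The log2 ratio of Pln to Atp2a2 counts was -3.31, -3.22 and -3.55 in NTG and -3.30, -3.41 and -3.10 in TG. These values overlap and their means differed by 0.088, with p = 0.5 in the exact two-sided permutation test (adjusted over the 4 ratios examined, 0.667). The smallest p that 3 libraries against 3 allow in this test is 0.1.

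Sln encodes sarcolipin, a second inhibitor of the pump that in mice is abundant in atrial muscle and scarce in the ventricle, and lies at chr9:53850164-53854560. It held 122, 1 and 1 counts in NTG and 4, 72 and 401 counts in TG, or 8.33, 0.0531 and 0.0579 CPM against 0.288, 4.09 and 24.8 CPM. High and low libraries occurred in both groups: TG 3, the library labelled NTG 1 and TG 2 were high, and TG 1 was low. The fitted log2 fold change was 1.85 (SE 1.71) with an adjusted p of 0.580 by edgeR, and it turned to -0.28 without TG 3. The log2 ratio of Sln to Atp2a2 ranged from -16.1 to -9.96 in NTG and from -14.7 to -8.43 in TG (p = 0.3, exact two-sided permutation test; adjusted over 4 ratios, 0.6).

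The genes whose log2 CPM ran most nearly with Sln over the 6 libraries were Mybphl (Pearson r 0.997), Myl4 (0.994) and E130311K13Rik (0.992). Myl4 is the atrial light chain of myosin and Mybphl a myosin-binding protein of atrial and conduction muscle. Myl4 was at 39.6, 1.96 and 2.14 CPM in NTG and at 2.67, 17.4 and 77.8 CPM in TG. Mybphl was at 2.59, 0 and 0 CPM in NTG and at 0.216, 1.42 and 7.16 CPM in TG. Myl7, the other atrial light chain, showed the same order of high libraries, with 19.5, 0.159 and 0 CPM in NTG and 1.59, 7.67 and 64.4 CPM in TG. Of the other genes on the list of 6 atrial markers, Nppa, Dkk3 and Kcnj3 did not follow it. Nppa was at 754, 1394 and 1400.5 CPM in NTG and at 172, 867 and 268 CPM in TG. Kcnj3 was at 14.3 CPM in NTG 1, lower in the other NTG libraries and at 18.5, 13.3 and 19.3 CPM in TG, so that TG 1 was its second highest library, and Bmp10 was at or near 0 in all 6 libraries. Markers of fast skeletal muscle, which can also express Sln, summed to 1.98 to 2.81 CPM over all 6 libraries, with Myh4 at 0 in each. The part of atrial tissue in the Sln values was not tested.

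**Figure D2:**
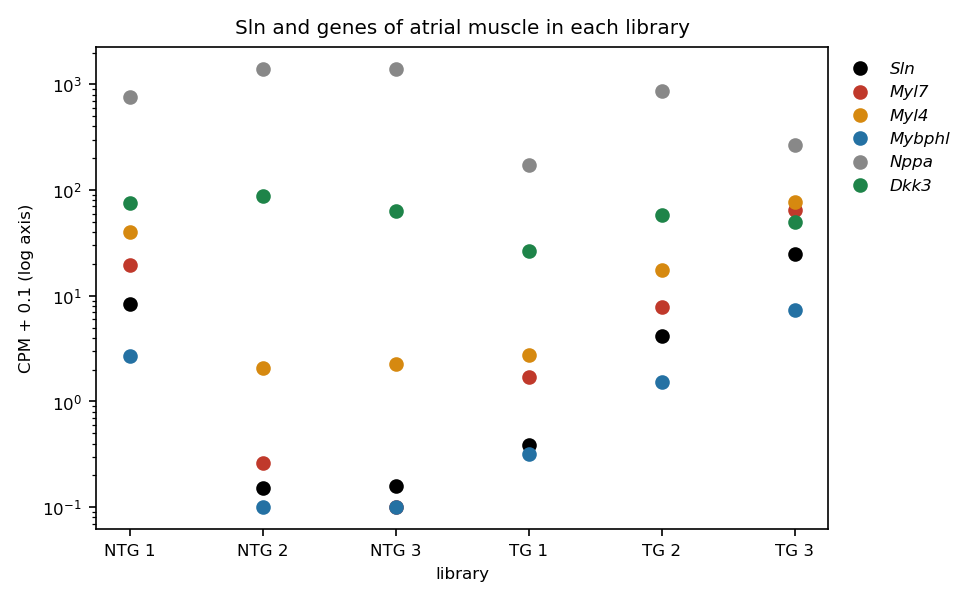
CPM plus 0.1 on a logarithmic axis (vertical) for Sln, 3 genes with the same order of the 3 highest libraries (Myl7, Myl4, Mybphl) and, from the atrial list, Nppa (also a hypertrophy marker) and Dkk3 in each of the 6 libraries (horizontal). Sln and these 3 genes are highest in TG 3, then NTG 1, then TG 2, while Nppa is highest in NTG 2 and NTG 3 (Myl7 and Mybphl coincide at 0 CPM in NTG 3).

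Ryr2 encodes the ryanodine receptor, the calcium release channel of the store, and lies at chr13:11553102-12106945. It was at 896, 697 and 885 CPM in NTG and at 1029, 833 and 1009 CPM in TG. NTG 2 was the lowest of the 6 libraries and TG 2 the lowest of its group, so that TG 2 lay below 2 NTG libraries. The log2 fold change was 0.21 (SE 0.16) with an adjusted p of 0.477 by edgeR.

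Casq2 encodes calsequestrin, which binds calcium inside the store, and lies at chr3:102086415-102146514. It was at 983, 642 and 776 CPM in NTG and at 939, 919 and 879 CPM in TG, so that the highest library of all was the one labelled NTG 1. Its log2 fold change was 0.19 (SE 0.17) with an adjusted p of 0.567 by edgeR. The log2 ratio of Casq2 to Ryr2 counts was -0.057 ± 0.17 in NTG and -0.063 ± 0.18 in TG (SD, n = 3 each), and the difference of -0.0061 gave p = 0.8 in the exact two-sided permutation test (adjusted over 4 ratios, 0.8). Trdn, the gene of triadin, which anchors calsequestrin to the release channel, lies at chr10:33080554-33476709. It varied least among the 10 genes relative to its mean, with 202, 156 and 169 CPM in NTG and 194, 177 and 193 CPM in TG, and had a log2 fold change of 0.10 (SE 0.12) with an adjusted p of 0.666 by edgeR. The antisense gene D830005E20Rik lies within Trdn and has counts equal to 8.49% of those of Trdn.

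Hrc encodes the histidine-rich calcium-binding protein, which binds calcium in the store and associates with both SERCA2 and triadin, and lies at chr7:45335290-45338974. It was at 395, 183 and 306 CPM in NTG and at 455, 434 and 503 CPM in TG. Every TG library was above every NTG library, with the library labelled NTG 1 nearest to TG. The means of 294 ± 107 and 464 ± 35.7 CPM (SD, n = 3 each) correspond to 1.58-fold, and the log2 fold change of 0.66 (SE 0.26) had an adjusted p of 0.234 by edgeR and 0.107 by DESeq2.

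Jph2 encodes junctophilin 2, which ties the store membrane to the T-tubules so that L-type channels face ryanodine receptors, and lies at chr2:163336242-163397993. It was at 503, 327 and 441 CPM in NTG and at 678, 546 and 587 CPM in TG. The groups did not overlap here either. The means were 424 ± 89.4 and 604 ± 67.7 CPM (SD, n = 3 each), 1.42-fold, and the log2 fold change of 0.51 (SE 0.18) had an adjusted p of 0.216 by edgeR and 0.0839 by DESeq2.

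Slc8a1 encodes the sodium-calcium exchanger NCX1, which removes calcium from the cell, and lies at chr17:81388691-81649607 in the deposited table. It was at 132, 143 and 147 CPM in NTG and at 129, 117 and 109 CPM in TG. All TG libraries were below all NTG libraries, although TG 1 and the library labelled NTG 1 were nearly equal. The means were 141 ± 7.68 and 119 ± 10.2 CPM (SD, n = 3 each), and the log2 fold change of -0.24 (SE 0.10) had an adjusted p of 0.250 by edgeR and 0.257 by DESeq2. The deposited length of Slc8a1 is 2934 bases, 15.6% of the 18807 exonic bases that GENCODE mouse release 21 gives it, and the promoter shown above lies 88.8 kb from the start of the deposited row. For the other 9 genes, span and length matched that release, so the Slc8a1 values rest on a smaller share of the gene.

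The exchanger was also set against the pump within each library. The log2 ratio of Slc8a1 to Atp2a2 counts was -5.98, -4.80 and -5.39 in NTG and -6.07, -5.99 and -6.29 in TG. The 3 TG libraries lay below the 3 NTG libraries, but the library labelled NTG 1 was only just above the highest TG library. The means differed by -0.73, which puts the TG ratio at 60.2% of the NTG ratio, and p was 0.1 in the exact two-sided permutation test, the smallest value it can give (adjusted over 4 ratios, 0.4). The difference therefore could not pass the threshold in this design. Its size was -1.03 without the library labelled NTG 1 and -0.44 without NTG 2.

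**Figure D3:**
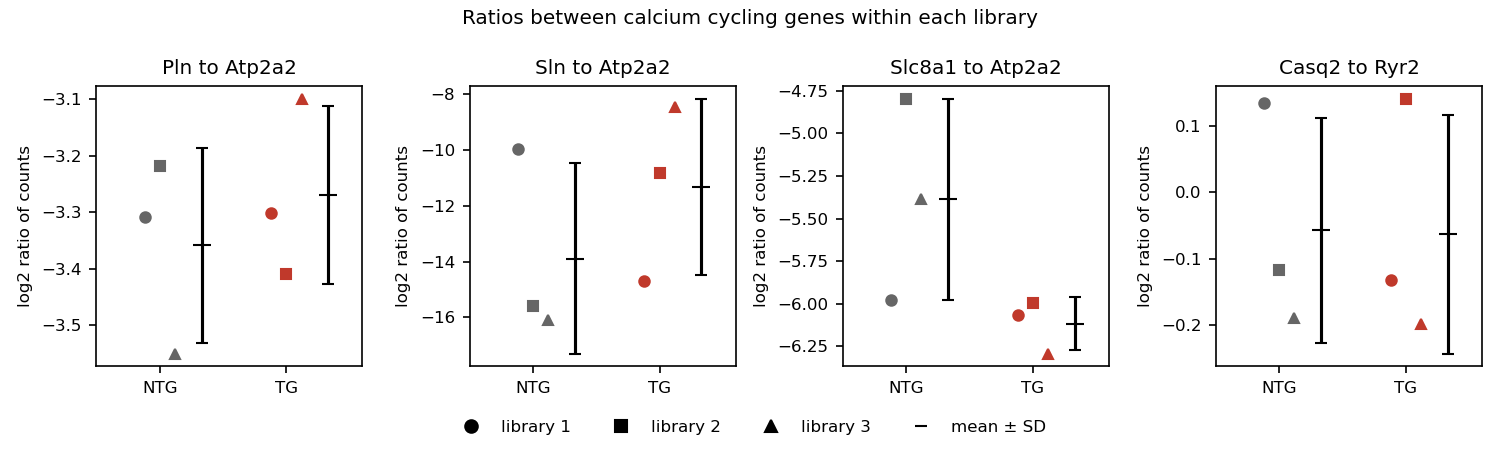
Log2 ratios of counts (vertical axes) between pairs of calcium cycling genes within each NTG library (grey) and TG library (red), with symbols for library number and black bars for mean ± SD. The ratio of Slc8a1 to Atp2a2 is -5.98 to -4.80 in NTG and -6.29 to -5.99 in TG without overlap, and the other 3 ratios overlap.

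Cacna1c encodes the pore of the L-type calcium channel, through which the trigger calcium enters, and lies at chr6:118587240-119196418. It was at 197, 151 and 198 CPM in NTG and at 217, 196 and 221 CPM in TG. TG 2 lay just below NTG 1 and NTG 3. The log2 fold change was 0.22 (SE 0.13) with an adjusted p of 0.390 by edgeR.

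Per kilobase of deposited gene length, which for Slc8a1 is a fraction of the annotated gene, the level of Atp2a2 was highest, at 1183 CPM per kb over the 6 libraries, followed by Casq2 (313), Pln (264), Hrc (148), Jph2 (121), Slc8a1 (44.2), Ryr2 (31.0), Trdn (19.4), Cacna1c (9.29) and Sln (4.75). The ranges over libraries overlapped between Casq2 and Pln, Pln and Hrc, Hrc and Jph2, and Cacna1c and Sln, although Pln was above Hrc within each of the 6 libraries. Atp2a2 was separate from Casq2, and Jph2, Slc8a1, Ryr2, Trdn and Cacna1c were each separate from the next in that order. The genes whose log2 CPM was most like that of Atp2a2 over the 6 libraries included Asph (Pearson r 0.999) and Aars2 (0.998), and those most like Pln were Ppp1r13b (0.999), Isoc1 (0.998) and Acot13 (0.997). Asph encodes junctin, a further anchor of calsequestrin, along with an aspartyl hydroxylase.

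The other genes of the pathway were read from a list of 52 genes in 5 roles, of which 51 were in the table and 49 were tested. edgeR called 0 of the 49, with 4 higher and 2 lower by a p below 0.05 before adjustment, and DESeq2 called 1, where the shares over all genes tested were 8.83%, 9.76% and 3.95%. In all, 31 were higher and 18 lower in TG by fitted fold change, the median was 0.053, and 7 lay entirely above and 3 entirely below NTG, where 11.2% and 12.3% of all genes tested did. For 49 genes these shares amount to more genes than were counted in the case of lower values, and to about as many in the case of higher values. The median of the 10 genes was 0.32, and 0.22 without Sln. Without the library labelled NTG 1, edgeR called 5 genes of the wider list, Casq1, Tmem38b, Cacna1h and Pde3a among them, and DESeq2 called 6. In those 5 libraries 5.52% (edgeR) and 11.7% (DESeq2) of all genes tested were called.

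Among 6 tested genes of the pump and its regulators, all 6 had higher fitted levels, with a median of 0.23. Atp2a3, a further SERCA gene, was at 28.7 ± 3.39 CPM in NTG and 34.1 ± 2.53 CPM in TG (log2 fold change 0.25, adjusted p of 0.301 by edgeR). Srl, which encodes the calcium-binding protein sarcalumenin, was at 871 ± 168 and 1017 ± 61.8 CPM (0.22, adjusted p of 0.493 by edgeR). Strit1 (Gm34302 in the table), whose micropeptide DWORF relieves the pump of phospholamban, was at 1.74 ± 1.28 and 2.82 ± 0.923 CPM (0.72, adjusted p of 0.474 by edgeR).

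In the release channel complex and calcium store, 8 of 16 genes were higher and 8 lower, with a median of -0.020. Casq1, the calsequestrin of skeletal muscle, was at 3.96, 1.70 and 1.91 CPM in NTG and at 4.33, 6.59 and 6.48 CPM in TG. Its log2 fold change of 1.22 (SE 0.36) had an adjusted p of 0.196 by edgeR and 0.0385 by DESeq2, which called it. The 3 genes lower in TG without overlap include Tmem38b, a potassium channel of the store membrane (-0.47, adjusted p of 0.204 by edgeR), and Sri, which encodes the ryanodine receptor regulator sorcin (-0.22, adjusted p of 0.251 by edgeR).

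Of 6 genes of the dyad and T-tubule, 4 were higher and 2 lower, with a median of 0.24. Cav3, the caveolin of muscle, was at 44.6 ± 6.65 and 53.9 ± 2.37 CPM (0.27, adjusted p of 0.276 by edgeR). Cmya5, which organises the dyad, was at 364 ± 67.7 and 447 ± 23.1 CPM (0.29, adjusted p of 0.337 by edgeR), and Speg, a kinase of this site, at 178 ± 19.1 and 209.6 ± 12.4 CPM (0.23, adjusted p of 0.302 by edgeR).

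Of 12 genes of calcium and sodium flux across the cell membrane, 8 were higher and 4 lower, with a median of 0.048. Cacna1h, a T-type calcium channel, was at 4.76 ± 2.75 and 9.43 ± 1.75 CPM (0.999, adjusted p of 0.232 by edgeR). Fxyd1, which encodes the sodium pump regulator phospholemman, was at 152 ± 12.2 and 178 ± 16.3 CPM (0.22, adjusted p of 0.313 by edgeR). Of 9 kinases, phosphatases and phosphodiesterases of calcium cycling, 5 were higher and 4 lower, with a median of 0.053. Pde3a, which degrades cyclic AMP near the store, was at 64.8 ± 11.5 and 85.8 ± 10.2 CPM (0.40, adjusted p of 0.218 by edgeR). Prkar1a, a regulatory subunit of protein kinase A, was at 942 ± 91.4 and 747 ± 104 CPM (-0.34, adjusted p of 0.282 by edgeR), and Prkaca, a catalytic subunit of this kinase, at 233 ± 34.9 and 269 ± 18.8 CPM (0.21, adjusted p of 0.425 by edgeR).

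**Figure D4:**
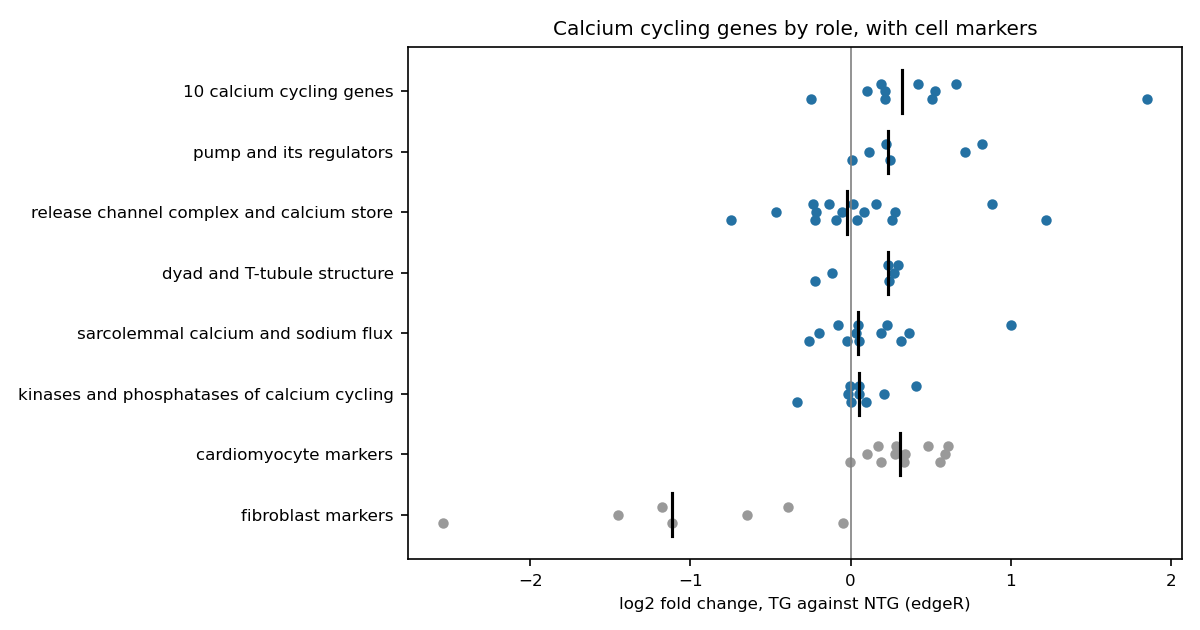
Log2 fold changes of TG against NTG by edgeR (horizontal) for the 10 calcium cycling genes, the 5 role lists of the wider pathway (blue) and markers of cardiomyocytes and fibroblasts (grey), with 1 point per gene and a black line at each median. The medians are 0.32 for the 10 genes (0.22 without Sln), 0.31 for cardiomyocyte markers and -1.12 for fibroblast markers.

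Markers of the cells in the tissue are given beside these values, and their part in the values of the calcium genes was not tested. edgeR called 0 genes of any marker list, and DESeq2 called 4 of 7 fibroblast and 4 of 5 erythroid markers lower, 1 of 4 markers of smooth muscle and pericytes higher, and 0 of 12 cardiomyocyte markers. Cardiomyocyte markers had a higher fitted level in TG for 11 of 12 genes, with a median log2 fold change of 0.31 beside 0.22 for the members without Sln, and their summed level was 32535 to 48977 CPM in NTG and 47797 to 57465 CPM in TG, with overlap. Fibroblast markers were lower for 7 of 7 genes, with a summed level of 4527 to 10672 CPM in NTG and 2193 to 3845 CPM in TG. Macrophage and leukocyte markers were lower for 5 of 5 genes (636 to 1137 CPM in NTG, 443 to 638 CPM in TG, with overlap) and erythroid markers for 5 of 5 (1309.9 to 2245 CPM in NTG, 762 to 908 CPM in TG). Endothelial markers (1393 to 1604 CPM in NTG, 1471 to 1616 CPM in TG) and those of smooth muscle and pericytes (1040.0 to 1374 CPM in NTG, 1121 to 1373 CPM in TG) overlapped between groups. In bulk tissue, fewer cells of a type and less RNA per cell cannot be told apart.

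The calcium genes and the cardiomyocyte markers had a like order of libraries. Taken as the median of log2 CPM around each gene's mean over libraries, the members without Sln were at 0.13, -0.40 and -0.13 in NTG and at 0.22, 0.0089 and 0.19 in TG. The cardiomyocyte markers were at 0.060, -0.44 and -0.11 in NTG and at 0.24, 0.078 and 0.17 in TG. NTG 2 was lowest in both, and the library labelled NTG 1 lay above TG 2 for the members. The share of counts on genes of the mitochondrial genome was 19.2%, 13.4% and 14.3% in NTG and 21.5%, 16.0% and 20.3% in TG, which is the same order of libraries as that of the members, and its part in their values was not tested. When libraries were scaled on the cardiomyocyte markers instead of all genes, the median log2 fold change of the 10 genes was 0.0027, or -0.12 without Sln. Under this scaling Ryr2 (-0.13), Casq2 (-0.13), Trdn (-0.24) and Cacna1c (-0.12) turned lower in TG, Hrc (0.36), Pln (0.22), Jph2 (0.19) and Atp2a2 (0.12) stayed higher, Slc8a1 was at -0.61, and the median of all genes tested shifted to -0.36.

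The size of most of these differences moved when 1 NTG library was left out. Without the library labelled NTG 1, edgeR called 1 of the 10 genes, Pln, with a log2 fold change of 0.86 and an adjusted p of 0.0434, where 5.52% of all genes tested were called. In the same 5 libraries DESeq2, in a setting added after the values were seen, called Atp2a2, Pln, Hrc and Jph2, where it called 11.7% of all genes tested. It also called Sln, which passed the low-count filter there only through TG libraries. For the members, the library labelled NTG 1 was the NTG library nearest to TG, so leaving it out widens most of their fold changes by itself. Without this library the edgeR log2 fold changes were 0.93 for Hrc, 0.70 for Atp2a2, 0.65 for Jph2, 0.36 for Casq2, 0.27 for Ryr2 and Cacna1c, 0.21 for Trdn and -0.29 for Slc8a1. That of Sln then stands against 1 count in each remaining NTG library. Without NTG 2, the lowest library for every member but Slc8a1, the log2 fold changes were 0.41 for Hrc, 0.35 for Jph2, 0.33 for Pln, 0.19 for Atp2a2, 0.10 for Ryr2 and Cacna1c, 0.052 for Casq2, 0.023 for Trdn and -0.23 for Slc8a1. For Slc8a1, both extremes came from leaving out a TG library, with -0.31 without TG 1 and -0.19 without TG 3. Hrc, Jph2, Pln, Atp2a2 and Slc8a1 kept their direction under each of the 26 alternatives tried. Dropping only the fold threshold or the robust option left the fold changes as they were, so not all 26 could alter a direction.

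**Figure D5:**
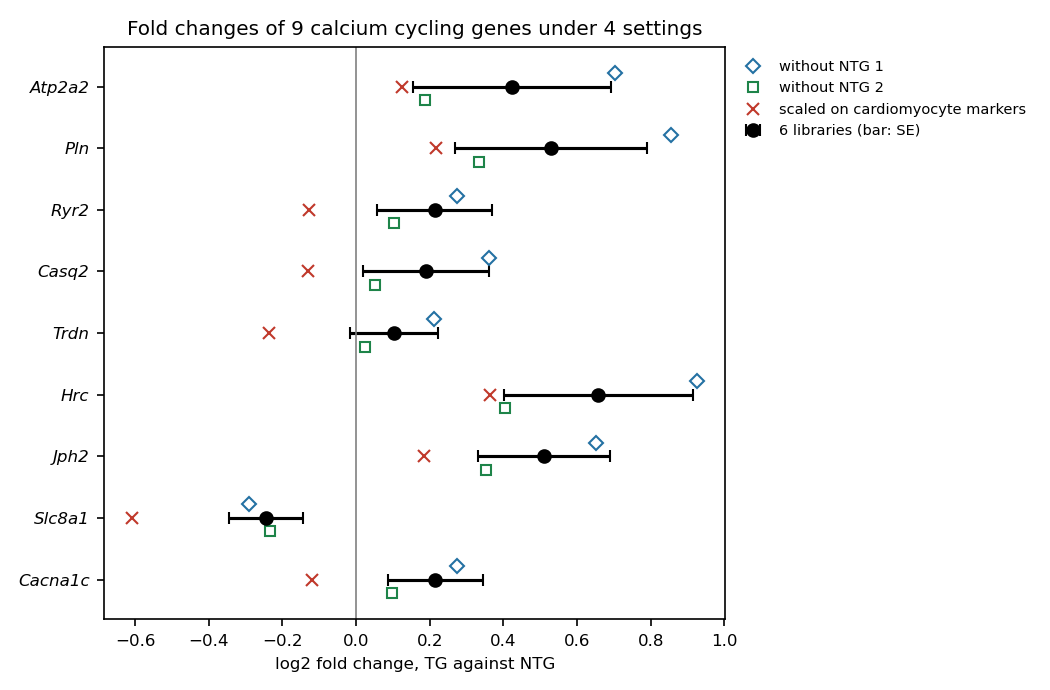
Log2 fold changes of TG against NTG (horizontal) for 9 calcium cycling genes with all 6 libraries (black, bars SE), without NTG 1, without NTG 2 and with scaling on cardiomyocyte markers. Sln is left out because of its spread; the crosses of Ryr2, Casq2, Trdn and Cacna1c lie below 0, at -0.24 to -0.12, and Slc8a1 is below 0 in all 4 settings.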

How the data were processed

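Poly-A selected RNA of 6 left ventricles was sequenced, and the authors counted reads per gene with featureCounts and deposited raw counts, 1 column per library, without normalisation. The submitters' processing notes name HISAT2, DESeq2 and GRCh38, while the table holds mouse genes whose coordinates are those of GRCm38: 98.3% of the genes found in GENCODE mouse release 21 were identical there. Strand and multi-mapping settings are not given in the sources used here. All 6 columns were matched to libraries by name, 0 were left unmatched, and 0 rows lacked a gene name.

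The analysis used R 4.3.3 and edgeR 4.0.16 (TMM, filterByExpr by group, robust quasi-likelihood test, no covariates), with Benjamini-Hochberg adjustment over 14774 genes. Calls needed a log2 fold change beyond 0.5 in either direction and an adjusted p below 0.05. DESeq2 1.42.0, limma 3.58.1 (voom), edgeR's likelihood-ratio test, other scalings and filters, a length offset (loess span 0.3), a replicate block and leaving out each library were alternatives, and DESeq2 without each library was added after the values were seen. Log2 CPM has a prior count of 2, and ratios were taken on counts plus 0.5 and tested by exact two-sided permutation. The tests were first tested on simulated data.

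The 10 members and all lists were chosen with earlier results of these data known. Named are the 10 members, the 3 genes of each role list with the smallest unadjusted edgeR p, and the 3 genes most correlated with Atp2a2, Pln and Sln. Of these, 2 genes are not reported here. Marker genes and Hint2 are named besides. Strit1 is listed in the table as Gm34302 and was matched through its RefSeq synonym. Depth was 14863568 to 17581220 counts per library, and the SD of each gene holds both counting error and the spread between hearts. FPKM values of the authors were not used here. Sequences are from RefSeq, and figures were drawn with matplotlib 3.10.9.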

Additional observations from a re-analysis of the deposited data

How the results depend on the processing

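The count of members called (0) was 0 under every alternative with all 6 libraries. It was 0 to 1 when each library was left out with edgeR, with 1 (Pln) without NTG 1, and 0 to 5 with DESeq2, an alternative chosen after seeing the data, with 5 (Atp2a2, Pln, Sln, Hrc and Jph2) without NTG 1. Of these 5, Sln passed the low-count filter there only through TG libraries. For the wider list, 1 gene (Casq1) was called by DESeq2, by edgeR's likelihood-ratio test and when the low-count filter was dropped, and 0 to 5 (edgeR) or 0 to 6 (DESeq2) with 1 library left out, the highest counts being those without NTG 1. The median log2 fold change of the members was 0.0027 (-0.12 without Sln) with scaling on cardiomyocyte markers, where Ryr2 (-0.13), Casq2 (-0.13), Trdn (-0.24) and Cacna1c (-0.12) changed sign, and 0.15 to 0.51 with 1 library left out. With the gene length offset alone it was 0.39 (0.31 without Sln), with 2 members higher and 0 lower by a p below 0.05 before adjustment. Sln changed sign without TG 3 (-0.28 by edgeR, -0.36 by DESeq2), was at 7.28 without NTG 1, a value that stands against 1 count in each remaining NTG library and depends on the prior count, and could not be tested with a minimum of 10 counts in every sample. The ratio of Pln to Atp2a2 (-0.0074 to 0.16) changed sign without NTG 3 and that of Casq2 to Ryr2 (-0.11 to 0.090) without NTG 1 (0.090), TG 1 (0.028) or TG 3 (0.062), while Slc8a1 to Atp2a2 ranged from -1.03 to -0.44 and Sln to Atp2a2 from 1.13 to 4.54. The causes were not tested. Over all genes, the number called was 0 in the edgeR analysis of 6 libraries, 583 by DESeq2, 545 with the likelihood-ratio test, 232 with no low-count filter and 836 (edgeR) or 1773 (DESeq2) of 15136 without NTG 1. In deviations from group means, same-numbered libraries had correlations of 0.081, 0.17 and -0.25, and the other pairs had -0.25 to 0.17. Such deviations are bound to each other within a group, so they cannot settle whether the numbers pair the samples. The replicate block called 231 genes, none of them members, with a median of 0.35 over the members. With the gene length offset added, it called 263 genes, again none of them members, with a median of 0.42. By an edgeR p below 0.05 before adjustment, 4 members were higher under the block and 6 with the offset added. The share of all genes below that p was not taken under the block or the length offset, so the counts of members there lack a background. For the ratio of Slc8a1 to Atp2a2, the block gave p = 0.25 in an exact sign-flip permutation test, the smallest value that 3 pairs allow. With 3 libraries per group, a p that missed the threshold does not show that a gene did not differ. For Sln, 1 to 4 counts in 3 libraries limit any fold.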
